A study of Mus musculus with 6 samples.

Results

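Of the 25899 gene symbols in the count table, 10 genes of the WNT pathway were followed in newly made RNA of mouse embryonic stem cells. They were taken by symbol. Tcf7, Lef1, Tcf7l1 and Tcf7l2 encode the TCF/LEF transcription factors, and Axin2, Nkd1, Fzd7, Rnf43, Znrf3 and Sp5 are direct WNT targets that feed back on the pathway. The cells were of the E14tg2a line on a 129SV background and stably carried cRAF-ErT2, a RAF kinase fused to a hormone-binding domain that 4-hydroxytamoxifen (4OHT) switches on, which activates ERK signalling. Each of 3 clones (a, b and c) gave 1 library after 250 nM 4OHT for 2 h and 1 library that was left untreated. All 6 cultures had first been kept in serum, LIF and 2 µM of the GSK3 inhibitor CHIR99021. All were then moved, 24 h before treatment, to serum medium with LIF and 250 nM of the FGF receptor inhibitor PD173074, and the labels list no CHIR99021 in that second medium. Newly made RNA was tagged with 5 mM ethynyl uridine during the final 15 min of culture, then captured and sequenced (EU-seq). The 6 libraries include neither cells that received 4OHT but lack the cassette nor a solvent control, so effects of 4OHT itself and of the kinase cannot be told apart.

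In WNT signalling a secreted ligand binds a Frizzled receptor with an LRP co-receptor, and this stops the destruction complex of AXIN, APC, GSK3 and CK1 from marking β-catenin for degradation. The β-catenin that accumulates enters the nucleus and binds TCF/LEF factors on DNA, where it displaces or counteracts Groucho/TLE corepressors. In mouse embryonic stem cells TCF7L1 is known mainly as a repressor of pluripotency genes, TCF7 and LEF1 act mostly as activators, and GSK3 inhibition favours self-renewal in part by relieving TCF7L1 repression.

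Total counts were 9431819, 8686555 and 7295334 after 4OHT in clones a, b and c, and 11549152, 12168380 and 9745747 in the untreated libraries of the same clones. Levels are given as TMM CPM, which is the usual depth-scaled count after adjustment between libraries by the trimmed mean of M-values. A count of 3 corresponded to 0.228 to 0.438 CPM, an approximate 95% upper limit for a gene with a count of 0. Such limits, and the counting intervals below, cover counting error only. Markers of embryonic stem cells (6 genes) summed to 1780 to 2160 CPM after 4OHT and 2150 to 2250 CPM untreated, with members moving in opposite directions. Zfp42 (1020 ± 83.4 CPM after 4OHT and 641 ± 54.5 CPM untreated) and Pou5f1 (225 ± 13.6 CPM after 4OHT and 175 ± 1.10 CPM untreated) were called higher, Nanog and Esrrb lower, and Sox2 and Dppa5a were not called. The 6 fibroblast or feeder markers summed to 3.59 to 5.41 CPM after 4OHT and 2.73 to 3.05 CPM untreated, and the defining collagen genes Col1a2 and Col3a1 and the matrix gene Dcn had at most 3 counts in every library. In the same list Col1a1, another collagen gene, was called higher, with 27, 16 and 25 counts after 4OHT against 1, 4 and 4 untreated (log2 fold change 3.45 ± 0.45), and Pdgfrb was called lower (-0.91 ± 0.30). Mesendoderm markers (6 genes, with Mesp1 and Cer1 at 3 counts or fewer in every library) summed to 16.2 to 18.4 CPM after 4OHT and 11.6 to 13.2 CPM untreated, and primitive endoderm markers (6 genes) to 9.03 to 11.4 CPM after 4OHT and 7.29 to 10.7 CPM untreated. The 5 neural markers, of which Neurog2, Tubb3 and Olig2 had at most 3 counts in every library, summed to 3.54 to 5.26 CPM after 4OHT and 5.78 to 7.37 CPM untreated. The 5 trophoblast markers summed to 75.4 to 89.2 CPM after 4OHT and 108 to 113 CPM untreated, with members moving in opposite directions. Tfap2c was called lower (log2 fold change -0.72 ± 0.12) and Hand1 higher (2.41 ± 0.35). Hand1 had 21, 17 and 16 counts after 4OHT against 3, 6 and 6 untreated. Gata3 and Krt7 were not called, and Elf5 was not tested. The part of these sums in the results was not tested, and in bulk samples fewer cells of a type and less RNA per cell cannot be told apart.

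Of the 10 genes, 9 passed the filter on low counts, and Sp5 did not. After 4OHT, 4 of the 9 were higher (Tcf7, Lef1, Tcf7l2 and Znrf3) and 2 were lower (Tcf7l1 and Fzd7), while Axin2, Nkd1 and Rnf43 did not pass the test (edgeR quasi-likelihood test, Benjamini-Hochberg adjusted p below 0.05 over 13869 genes). Most genes responded in these cells: 57.1% of all genes tested were called, 28.5% as higher and 28.6% as lower. The 6 of 9 called here are thus close to that background, and the split between higher and lower was 4 to 2 against an even split over all genes. The ranges of the 3 treated and the 3 untreated libraries did not overlap for 6 of the 9 genes, against 63.3% of all genes tested. Over all genes the median of the absolute log2 fold change was 0.39. The changes of Tcf7, Lef1, Tcf7l2 and Fzd7 were larger than that, that of Tcf7l1 was close to it and that of Znrf3 was smaller. Scaling by library size alone shifted the median log2 fold change by -0.20, and of the 6 genes called here Znrf3 was the one whose direction depended on that choice.

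**Figure D1:**
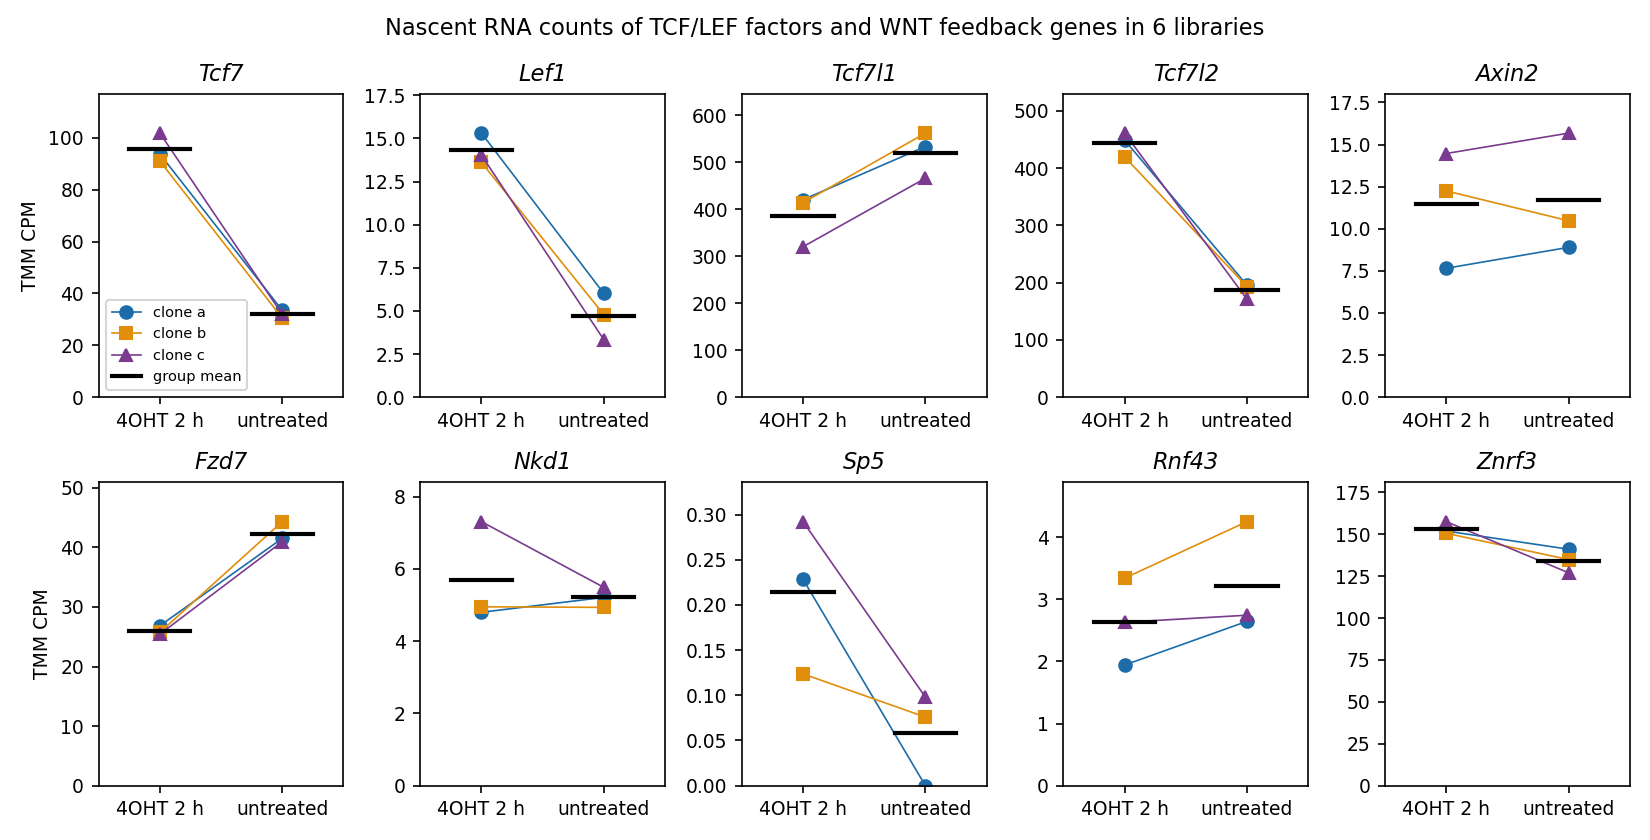
Nascent RNA level (TMM CPM, linear axes from 0) of the 10 genes in 6 libraries, with 4OHT at the left and untreated at the right of each panel. Points are libraries, thin lines join the libraries of a clone and black bars are group means. Tcf7, Lef1 and Tcf7l2 lie higher after 4OHT in all 3 clones and Tcf7l1 and Fzd7 lower, while the lines of Axin2 and Nkd1 go in both directions. Sp5 rests on 0 to 2 counts a library.

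The 4 TCF/LEF factors share a DNA-binding HMG box, and reads from one gene could in principle be counted for another. The stretch of 60 bases in which their coding sequences are most alike, which lies in the HMG box, is shown for that reason (GENCODE M21, GRCm38, longest coding sequence of each gene, 5′ to 3′). Capitals mark the 44 bases that are identical in all 4 genes.
Tcf7: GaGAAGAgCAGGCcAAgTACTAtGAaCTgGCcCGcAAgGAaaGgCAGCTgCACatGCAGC
Lef1: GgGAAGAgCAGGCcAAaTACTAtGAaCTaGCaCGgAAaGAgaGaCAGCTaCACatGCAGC
Tcf7l1: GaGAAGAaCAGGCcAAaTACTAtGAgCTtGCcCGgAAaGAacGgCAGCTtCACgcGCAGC
Tcf7l2: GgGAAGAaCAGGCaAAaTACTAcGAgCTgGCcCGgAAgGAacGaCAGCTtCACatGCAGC
Pairs of these windows differed at 8 to 11 bases, and the longest run identical between a pair was 17 bases, in Lef1 and Tcf7l1. No stretch of 50 bases in the annotated transcripts of one TCF/LEF gene occurred in those of another of the 10 genes. With annotated transcripts of other genes, Lef1 shared 13.7% of its 50-base stretches (with 84 genes) and Tcf7l1 1.29% (with 1 gene), while Tcf7 and Tcf7l2 shared none. Introns outside annotated transcripts were not searched. How reads that map to several places were counted is not given in the sources used here.

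Tcf7 (ENSMUSG00000000782.15, GRCm38 chromosome 11, 52252371 to 52283014, minus strand) encodes TCF1, an activating family member. It had 93.8, 91.1 and 102 CPM after 4OHT in clones a, b and c, against 33.5, 30.5 and 31.9 CPM untreated. All treated libraries lay above all untreated ones, and libraries within a group differed little. The log2 fold change was 1.58 ± 0.07 (SE, n = 3 libraries a group, edgeR quasi-likelihood adjusted p = 1.299e-07), and it was 1.48, 1.57 and 1.67 in clones a, b and c taken alone. The long non-coding RNA Gm26551 and the antisense RNA A630014C17Rik overlap the Tcf7 span and are not in the count table. Whether counting used strand is not given in the sources used here, so reads from overlapping genes cannot be told apart.

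Lef1 (ENSMUSG00000027985.14, chromosome 3, 131110471 to 131224356, plus strand), which encodes another mostly activating factor, had the lowest level of the family per kilobase of exon. It stood at 15.3, 13.6 and 14.0 CPM after 4OHT, from 134, 110 and 96 counts, against 6.01, 4.78 and 3.33 CPM untreated, from 75, 63 and 34 counts. The groups did not overlap, and the treated libraries were more alike than the untreated ones. Its log2 fold change was 1.59 ± 0.19 (adjusted p = 5.852e-05 by edgeR), the largest rise among the 9 genes tested but within its error of that of Tcf7. In single clones it was 1.32, 1.47 and 2.01, and clone c, which had the lowest untreated count, gave the largest value. Gm42449, which lies within the Lef1 span on the same strand, was listed at 0 in all 6 libraries, and the antisense RNA Gm43352 is not in the table.

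Tcf7l2 (ENSMUSG00000024985.19, chromosome 19, 55741820 to 55933654, plus strand) encodes TCF4, which can activate or repress depending on the partner. It had 449, 420 and 461 CPM after 4OHT, against 196, 193 and 171 CPM untreated. The groups were far apart relative to the spread within them. Tcf7l2 thus rose by a log2 fold change of 1.25 ± 0.07 (adjusted p = 4.914e-07 by edgeR), with 1.20, 1.12 and 1.43 in clones a, b and c. An RNA within its introns on the same strand, Ppnr, is not in the table.

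Tcf7l1 (ENSMUSG00000055799.13, chromosome 6, 72626378 to 72789254, minus strand) encodes TCF3, the family's repressor of pluripotency genes in mouse embryonic stem cells. It was the one TCF/LEF gene that fell, with 420, 414 and 320 CPM after 4OHT against 534, 562 and 466 CPM untreated. The groups did not overlap, and the closest values were those of treated clone a and untreated clone c. This gave a log2 fold change of -0.44 ± 0.11 (adjusted p = 0.006395 by edgeR), and every clone moved the same way, by -0.34, -0.44 and -0.54. Clone c had the lowest Tcf7l1 level in both groups. Without both libraries of clone b the adjusted p was 0.0576 at a log2 fold change of -0.43, and the call was lost. It was kept without both libraries of clone a (0.0238) or of clone c (1.09e-06). With clone as a block in the model, the log2 fold change of Tcf7l1 was -0.44 ± 0.04 (adjusted p = 6.339e-08 by edgeR). The transcripts Gm37969, Gm38114, Gm38320 and Gm37736, which lie within its span, were listed at 0 in all libraries, and its antisense RNAs Gm15401 and Gm15402 are not in the table.

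Since the factors bind the same DNA motif, their make-up within each library was also described, which needs no scaling between libraries. Tcf7l1 gave 43.0%, 44.1% and 35.7% of the summed counts of the 4 genes after 4OHT, against 69.4%, 71.1% and 69.3% untreated. Tcf7l2 gave 45.9%, 44.7% and 51.4% after 4OHT, against 25.4%, 24.4% and 25.4% untreated. Tcf7l2 was thus the largest contributor in all treated libraries, although in clone b its counting interval overlapped that of Tcf7l1, and Tcf7l1 was the largest in all untreated ones. The 95% Wilson interval of the Tcf7l1 share ran from 34.5% to 36.9% in the treated library of clone c and from 68.2% to 70.4% in its untreated library, so counting error was small beside the difference. Tcf7 made up 10.2 ± 0.987% after 4OHT and 4.32 ± 0.447% untreated, and Lef1 1.53 ± 0.0654% after 4OHT and 0.627 ± 0.145% untreated (SD, n = 3 libraries a group). For each of the 4 shares the groups did not overlap, and the exact permutation test over the 6 libraries gave p = 0.1 (two-sided, also 0.1 after adjustment over the 4 factors), the smallest p that 3 against 3 libraries allow. The summed level of the family was 938 ± 40.6 CPM after 4OHT and 744 ± 62.9 CPM untreated (exact permutation p = 0.1).

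**Figure D2:**
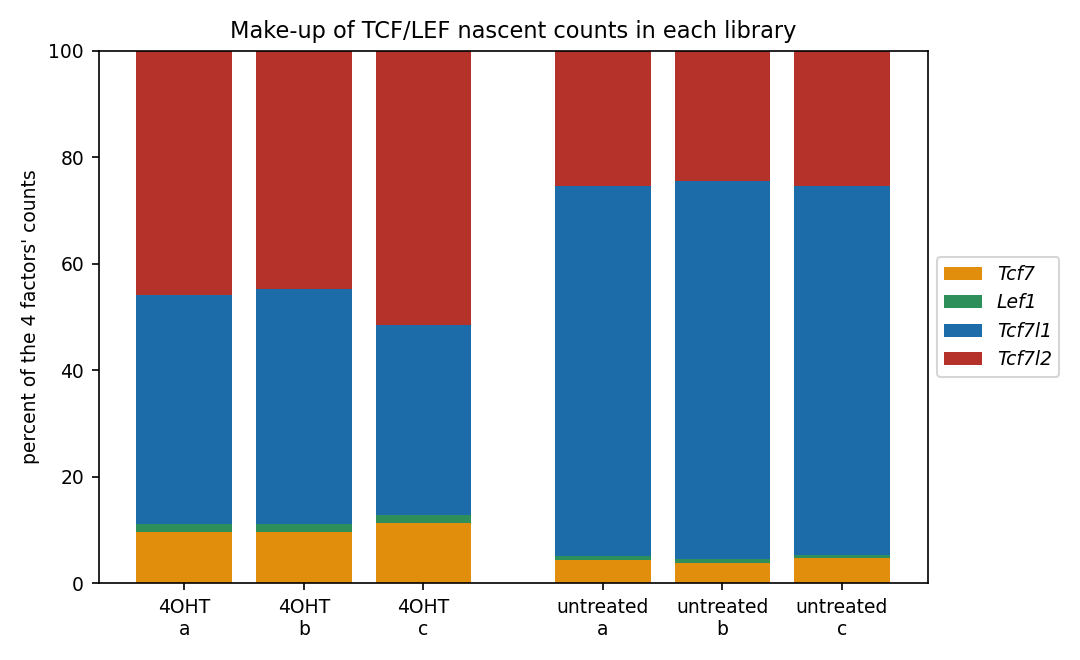
Percent of the summed counts of Tcf7, Lef1, Tcf7l1 and Tcf7l2 that each gene gave, in each of the 6 libraries, with the 4OHT libraries at the left and the untreated ones at the right. The blue Tcf7l1 segment is 35.7% to 44.1% after 4OHT and 69.3% to 71.1% untreated, and the red Tcf7l2 segment is larger after 4OHT in every clone.

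Shares of counts favour long genes, and the order depended on the length used. Per kilobase of exon, Tcf7l1 gave 52.4% of the family after 4OHT and 79.6% untreated, and Tcf7 gave 19.6% after 4OHT and 7.35% untreated. Per kilobase of gene span, Tcf7l1 gave 29.8% after 4OHT and 60.8% untreated, and Tcf7 gave 39.4% after 4OHT and 19.9% untreated. On either length the Tcf7l1 share was lower and the Tcf7 share higher after 4OHT. Which factor came first after 4OHT was not the same: Tcf7l1 per kilobase of exon, Tcf7 per kilobase of span. The feature type that was counted, exons or gene bodies, is not given in the sources used here.

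Of 4 ratios between these genes compared within libraries, that of Tcf7 to Tcf7l1 differed most between the groups. The log2 ratio of Tcf7 to Tcf7l1 counts was -2.16, -2.18 and -1.65 after 4OHT in clones a, b and c, against -3.99, -4.20 and -3.87 untreated. The mean difference was 2.02, a 4.05-fold shift towards Tcf7, with 1.83 to 2.21 in single clones (exact permutation p = 0.1, adjusted p = 0.267 over 4 ratios). The log2 ratio of Lef1 to Tcf7l2 was -4.87, -4.94 and -5.03 after 4OHT against -5.02, -5.33 and -5.66 untreated, a mean difference of 0.39 with ranges that overlapped (exact permutation p = 0.2, adjusted p = 0.267). Within clones this difference was 0.15 to 0.63, positive in all 3. The exact sign-flip test over the 3 clone pairs gave p = 0.25 for each of the 4 ratios, the smallest it allows, so neither test could pass 0.05.

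Of the 5 feedback genes tested, 1 fell, 1 rose and 3 did not pass the test. Over all genes tested, 28.5% were higher and 28.6% lower. With 5 genes, these counts do not set the feedback genes apart from that background. Fzd7 (ENSMUSG00000041075.8, chromosome 1, 59482424 to 59486955, plus strand), a gene with a single exon that encodes a Frizzled receptor and is itself a WNT target, had 26.8, 25.7 and 25.4 CPM after 4OHT, against 41.5, 44.3 and 41.0 CPM untreated. The 3 treated libraries were nearly equal and all lay below the untreated ones. The log2 fold change was -0.70 ± 0.08 (adjusted p = 4.578e-05 by edgeR), with -0.63, -0.78 and -0.68 in clones a, b and c. It was the largest fall among the 9 genes tested. No annotated gene overlaps it, and none of its 50-base stretches occurs in the annotated transcripts of another gene.

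Znrf3 (ENSMUSG00000041961.14, chromosome 11, 5276324 to 5444847, minus strand) and Rnf43 (ENSMUSG00000034177.15, chromosome 11, 87662722 to 87735539, plus strand) encode membrane ubiquitin ligases that remove Frizzled receptors from the cell surface. Znrf3 had 152, 151 and 158 CPM after 4OHT, against 141, 135 and 127 CPM untreated. The groups did not overlap, but the difference was small, with a log2 fold change of 0.19 ± 0.06 (adjusted p = 0.02523 by edgeR). It was 0.11, 0.16 and 0.31 in clones a, b and c. With clone as a block it was 0.19 ± 0.05 (adjusted p = 0.002183 by edgeR). Scaled by library size alone the log2 fold change was -0.01 (adjusted p = 0.914), scaled by the upper quartile 0.09 (0.231), and in DESeq2 0.19 (0.0708). The call was kept in 7 of the 20 alternatives, and among the others the direction turned in 1, so neither a rise nor a fall of Znrf3 is settled by these libraries. Leaving out single libraries ended the call for untreated clone b (0.0739), untreated clone c (0.0943), treated clone a (0.0552) and treated clone b (0.0504).

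Rnf43 rested on few counts, at 1.94, 3.34 and 2.63 CPM after 4OHT (17, 27 and 18 counts) against 2.65, 4.25 and 2.74 CPM untreated (33, 56 and 28 counts). The groups overlapped, and each clone was lower after 4OHT by its own values. The log2 fold change of -0.30 ± 0.29 had a 95% interval from -0.94 to 0.33 (adjusted p = 0.3853 by edgeR), which leaves room for a fall of the size of that of Fzd7. The log2 ratio of Rnf43 to Znrf3 within libraries was -6.25, -5.47 and -5.87 after 4OHT against -5.72, -4.98 and -5.51 untreated, a mean difference of -0.46, with -0.53 to -0.36 in single clones (exact permutation p = 0.3, also after adjustment over 4 ratios). A small nuclear RNA (Gm25968) and an intronic RNA (1110028F11Rik) overlap Rnf43 and are not in the table.

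Axin2 (ENSMUSG00000000142.15, chromosome 11, 108920349 to 108950783, plus strand) encodes a scaffold of the destruction complex and is the most widely used readout of β-catenin activity. It had 7.65, 12.2 and 14.5 CPM after 4OHT (67, 99 and 99 counts), against 8.90, 10.5 and 15.7 CPM untreated (111, 138 and 160 counts). The ranges of the groups overlapped almost completely. Without a clone term the log2 fold change was -0.03 ± 0.25, with a 95% interval from -0.60 to 0.54 (adjusted p = 0.9277 by edgeR). By that fit a change inside the interval could not be told from none. With clone as a block the log2 fold change of Axin2 was -0.02 ± 0.13 (adjusted p = 0.8776 by edgeR), with a smaller error. Axin2 differed between clones: clone a was lowest and clone c highest in both groups, by 0.42 for b over a and 0.86 for c over a on the log2 scale (adjusted p = 0.003476 in the joint test of the 3 clones). The log2 ratio of Axin2 to Fzd7 was -1.80, -1.07 and -0.81 after 4OHT against -2.22, -2.08 and -1.38 untreated, 0.67 higher on average and 0.42 to 1.01 higher in single clones, with group ranges that overlapped (exact permutation p = 0.2, adjusted p = 0.267). An antisense RNA, Gm11670, overlaps Axin2 and is not in the table.

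Nkd1 (ENSMUSG00000031661.12, chromosome 8, 88521354 to 88594884, plus strand) encodes an inhibitor that binds Dishevelled. It had 4.80, 4.95 and 7.31 CPM after 4OHT (42, 40 and 50 counts), against 5.21, 4.93 and 5.49 CPM untreated (65, 65 and 56 counts). Treated clone c was above the other libraries, which were alike. For Nkd1 the log2 fold change was 0.11 ± 0.20 with a 95% interval from -0.33 to 0.55 (adjusted p = 0.6503 by edgeR). Gm45496, within its span, was listed at 0 in all libraries.

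Sp5 (ENSMUSG00000075304.2, chromosome 2, 70474923 to 70477729, plus strand) encodes a zinc-finger factor and is a direct target of β-catenin in mouse embryonic stem cells. Here it had 2, 1 and 2 counts after 4OHT and 0, 1 and 1 counts untreated. The sum of 5 counts after 4OHT has an exact 95% Poisson interval of 1.62 to 11.7, and the sum of 2 counts untreated one of 0.242 to 7.22, which overlaps it. All 6 libraries were at or under 3 counts, so no fold change is given.

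**Figure D3:**
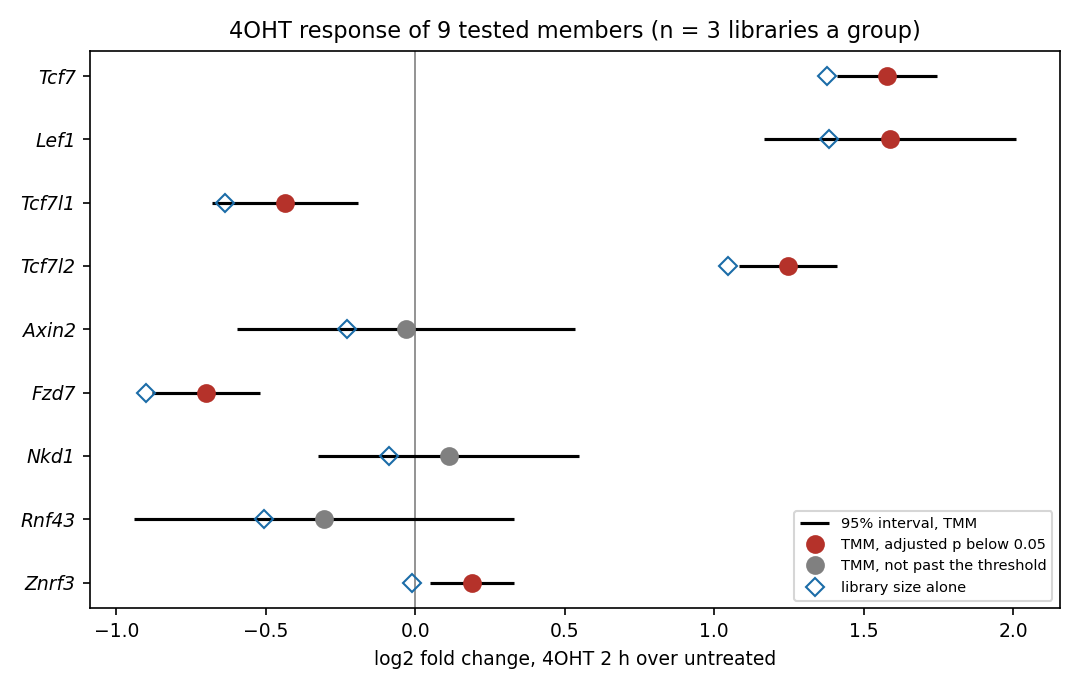
Log2 fold change (4OHT over untreated) of the 9 genes tested, with n = 3 libraries a group. Filled circles are TMM-scaled values, red where the adjusted p is below 0.05 and grey otherwise, lines are 95% intervals and open diamonds are the values scaled by library size alone. Tcf7, Lef1 and Tcf7l2 stand above 1 on both scalings, Tcf7l1 and Fzd7 below 0, and Znrf3 moves to -0.01 by library size.

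Clones were compared within the same model. In the joint test of the 3 clones beside treatment, 2 of the 9 genes were called (Tcf7l1 and Axin2), against 12.6% of all genes tested. Tcf7l1 in clone c differed from clone a by -0.29 on the log2 scale (adjusted p = 0.0009695), while clone b was 0.03 above clone a. For Rnf43, clone b lay above clone a by 0.72, which did not pass after adjustment (adjusted p = 0.1706). The clones therefore ranked in different orders for Axin2 (c, b, a from the top) and for Tcf7l1 (a and b near each other, c lowest). The clone test gave adjusted p of 0.511 for Tcf7, 0.717 for Tcf7l2 and 0.841 for Fzd7.

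Levels of different genes were compared per kilobase. By exon length, Tcf7l1 was highest in both groups, at 98.1 ± 14.3 CPM per kilobase after 4OHT and 133 ± 12.6 untreated (SD, n = 3 libraries a group). Tcf7l2 came second, at 50.5 ± 2.43 after 4OHT and 21.3 ± 1.54 untreated. Tcf7 was next after 4OHT, at 36.4 ± 2.14, while in untreated cells, at 12.2 ± 0.569, it stood below Znrf3 (19.4 ± 0.468 after 4OHT and 17.0 ± 0.893 untreated). Fzd7 followed in both groups, at 5.74 ± 0.164 after 4OHT and 9.33 ± 0.398 untreated, and then Axin2, at 2.08 ± 0.631 after 4OHT and 2.12 ± 0.645 untreated. Lef1 had 1.63 ± 0.101 after 4OHT, where its range overlapped that of Axin2 above and Nkd1 below it (1.25 ± 0.309). In untreated cells Lef1 had 0.536 ± 0.153, below Nkd1 (1.14 ± 0.0608) and overlapping with Rnf43 (0.490 ± 0.137). Rnf43 (0.402 ± 0.107 after 4OHT) and Sp5 (0.102 ± 0.0405 after 4OHT and 0.0276 ± 0.0245 untreated) were lowest. By gene span the short gene Fzd7 came first in both groups, and in each group 3 of the 10 genes kept their place.

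Sequence upstream of the start sites was described for these genes. RefSeq (GRCm38.p6) gave a window of 250 bases before a start for 9 of the 10 genes, taking the start nearest to the annotated gene start, and Znrf3 had no entry. Windows were searched on both strands for the TCF/LEF letters CTTTGNN with AA, AT, TT or TA as the last pair, for an EGR word GCGGGGGCG, for an ETS word CCGGAAG and for an AP-1 word TGANTCA. The TCF/LEF letters were present in the chosen windows of Fzd7 and Sp5, and in 14.8% of 32851 windows of that length. At starts other than the chosen one, they were also present for Lef1 (1 of its 4 starts) and Tcf7l2 (1 of its 2 starts). The EGR word was present in those of Tcf7 and Tcf7l2, and in 2.57% of all windows. In Tcf7 the match began 146 bases before the chosen start. It lies in a reading frame that opens with ATG and has no stop codon up to the window's end. The Tcf7 window may therefore hold coding sequence of a longer transcript rather than upstream sequence, which was not tested. The ETS word (6.91% of all windows) and the AP-1 word (6.75%) were in none of the 9. The windows of 3 of the 4 genes with a match are printed for that match, 5′ to 3′ along the gene, and capitals mark the matched letters on either strand.
Fzd7, chr1:59481897-59482146, plus strand: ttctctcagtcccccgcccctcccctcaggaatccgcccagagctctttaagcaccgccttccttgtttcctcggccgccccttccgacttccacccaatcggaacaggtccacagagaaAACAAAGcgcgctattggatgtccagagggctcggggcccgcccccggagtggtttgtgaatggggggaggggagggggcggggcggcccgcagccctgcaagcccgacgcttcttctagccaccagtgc
Sp5, chr2:70474673-70474922, plus strand: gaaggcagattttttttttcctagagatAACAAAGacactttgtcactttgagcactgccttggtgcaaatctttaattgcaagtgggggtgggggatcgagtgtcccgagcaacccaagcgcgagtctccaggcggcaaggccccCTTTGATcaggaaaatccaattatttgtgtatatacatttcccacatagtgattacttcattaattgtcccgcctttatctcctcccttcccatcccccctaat
Tcf7l2, chr19:55741560-55741809, plus strand: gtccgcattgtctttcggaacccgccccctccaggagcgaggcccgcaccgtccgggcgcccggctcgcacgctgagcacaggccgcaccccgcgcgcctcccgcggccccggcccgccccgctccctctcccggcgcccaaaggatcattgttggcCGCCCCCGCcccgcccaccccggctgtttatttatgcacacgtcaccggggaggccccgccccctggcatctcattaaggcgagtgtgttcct
The TCF/LEF match of Fzd7 began 130 bases before the start, those of Sp5 222 and 104 bases before it, and the EGR match of Tcf7l2 93 bases before it. A match is a description of letters and not a site of binding.

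Genes with the pattern most like that of the largest rise and the largest fall were found by the Euclidean distance of mean-centred log2 CPM over the 6 libraries, among 10917 candidates. Nearest to Lef1 were Slc15a1 (a peptide transporter), Plk3 (a polo-like kinase) and Reln (the matrix protein reelin), at distances of 0.303, 0.333 and 0.394 on the log2 scale. Nearest to Fzd7 were Ola1, Zfhx2 and Exosc5 (an exosome subunit), at 0.0838, 0.0881 and 0.103.

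The rest of the pathway was described by lists of 132 genes, of which 108 were tested. Of these, 34 were higher, 43 lower and 31 not called, with a median log2 fold change of -0.15, beside a median of -0.00054 and 28.5% higher and 28.6% lower over all genes tested. Scaled by library size alone the split was 26 higher and 56 lower, where over all genes it was 2407 higher and 5684 lower. Among ligands and their release factors, 3 of 14 tested were higher and 6 lower. The ligands Wnt5b and Wnt7b rose by 1.91 ± 0.16 and 1.02 ± 0.14 on the log2 scale, and Wnt7a by 1.37 ± 0.33. Wnt7a rested on 17, 19 and 27 counts after 4OHT against 15, 13 and 9 untreated. Wls, the carrier that brings WNT proteins to the cell surface, had 8.71 ± 2.77 CPM after 4OHT and 25.6 ± 2.12 CPM untreated (-1.55 ± 0.18). Wnt16 (-0.92 ± 0.27), Wnt2b (-0.59 ± 0.19), Wnt3 (-1.03 ± 0.33), Wnt3a (-1.45 ± 0.46) and Wnt10a (-1.83 ± 0.35) were lower as well. Counts after 4OHT were only 6, 2 and 2 for Wnt3a and 3, 4 and 3 for Wnt10a. Wnt3, Wnt3a and Wnt10a would not have passed the filter on low counts by their treated libraries alone, nor Wnt7a by its untreated ones. Without both libraries of clone a, 2 genes of this list were called lower, and without those of clone b 3.

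Of 17 receptors and co-receptors tested, 10 were lower (58.8%, against 28.6% of all genes tested) and 5 higher (29.4%, against 28.5%). The median log2 fold change was -0.49. With Fzd7 included, 6 of the 10 Frizzled genes were lower, 2 higher and 2 not called. Fzd2 (-1.22 ± 0.19), Fzd4 (-1.02 ± 0.28), Fzd8 (-0.91 ± 0.16), Fzd9 (-0.77 ± 0.25) and Fzd10 (-1.59 ± 0.16) were lower and Fzd3 (0.45 ± 0.09) and Fzd6 (0.75 ± 0.15) higher. Counts after 4OHT were only 14, 16 and 15 for Fzd4 and 14, 11 and 13 for Fzd9. Fzd5 stood at 0.03 ± 0.09 (108 ± 12.7 CPM after 4OHT and 106 ± 5.37 CPM untreated) and Fzd1 at -0.70 ± 0.35, neither past the test. The LRP co-receptors split, with Lrp5 at -0.49 ± 0.06 and Lrp6 at 0.45 ± 0.06, both past the test. Ptk7, a pseudokinase of planar polarity, rose by 0.69 ± 0.06. Lgr6, a receptor for R-spondins, which protect Frizzleds from RNF43 and ZNRF3, rose by 2.89 ± 0.29, with 25.8 ± 9.63 CPM after 4OHT and 3.49 ± 1.05 CPM untreated, while its relative Lgr4 fell (-0.72 ± 0.14).

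Of 21 secreted or surface modulators, 9 did not pass the filter on low counts. Of the 12 tested, 2 rose (16.7%, against 28.5% of all genes tested) and 8 fell (66.7%, against 28.6%). The median log2 fold change was -1.07, the lowest of the pathway lists apart from the pluripotency genes below. The WNT-binding antagonists Sfrp1 (18.8 ± 2.42 CPM after 4OHT and 66.9 ± 1.19 CPM untreated, -1.83 ± 0.09) and Sfrp4 (-2.94 ± 0.30) and the DKK-family gene Dkk3 (-1.52 ± 0.23) were lower. Sfrp4 rested on 13, 7 and 5 counts after 4OHT against 111, 82 and 97 untreated. Dkk3 rested on 17, 12 and 10 counts after 4OHT against 67, 54 and 49 untreated. Tpbg, a surface protein that inhibits WNT signalling, rose by 1.32 ± 0.14, and Wif1, a secreted WNT inhibitor, by 1.79 ± 0.28. Also called lower were the inhibitor genes Sfrp2, Notum, Apcdd1 and Draxin, and Rspo2, which encodes an R-spondin and not an inhibitor. Counts after 4OHT were only 5, 3 and 5 for Draxin and 5, 6 and 12 for Rspo2. Sfrp4, Draxin and Rspo2 would not have passed the filter on low counts by their treated libraries alone. Wif1 would not have passed it by its untreated ones. The shares above are therefore no test of this list. Inhibitors thus stood on both sides, with more of those tested lower than higher.

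The destruction complex and cytoplasmic transducers went mostly the other way. Over all genes tested, 28.5% were higher and 28.6% lower. In this list 13 of 26 tested rose and 3 fell, around a median log2 fold change of 0.22. Scaled by library size alone this was 9 higher and 9 lower, so the surplus of higher genes depended on the scaling, and with clone as a block 14 were higher and 6 lower. Csnk1g2 (0.67 ± 0.06) and Csnk1a1 (0.70 ± 0.07), kinases of the CK1 family, Dact1, a Dishevelled-binding regulator (1.19 ± 0.14), and Axin1, the constitutive relative of Axin2 (0.51 ± 0.06), were higher. Ctnnb1, which encodes β-catenin itself, was also higher (0.59 ± 0.08). The 3 lower were Gsk3b (-0.22 ± 0.08), Btrc (-0.49 ± 0.10) and Amer1 (-0.26 ± 0.09). This count was 1 without any one of untreated clone a, untreated clone b, treated clone b or treated clone c, and 1 without both libraries of clone a or of clone b.

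Nuclear co-factors and corepressors split evenly, with 6 of 20 tested higher and 6 lower (3 and 8 by library size). Each direction held 30.0% of those tested, close to the 28.5% higher and 28.6% lower over all genes. Sox13, an SoxD factor reported to bind TCF1, had 125 ± 11.1 CPM after 4OHT and 37.8 ± 3.10 CPM untreated (1.72 ± 0.09). Bcl9l, which links β-catenin to Pygopus, had 15.2 ± 1.49 CPM after 4OHT and 44.4 ± 0.559 CPM untreated (-1.54 ± 0.09), and the low gene Cxcr5 overlaps it on the other strand. The Groucho corepressors differed among themselves, with Tle4 at 0.78 ± 0.08, Tle3 at -0.59 ± 0.06 and Tle1 at -0.28 ± 0.07. Without both libraries of clone b, 3 genes of this list were called higher.

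Of 17 other WNT targets, 7 were not tested. Of the 10 tested, 5 were higher and 3 lower, beside 28.5% higher and 28.6% lower over all genes tested. Higher were Jun (3.69 ± 0.13), Bmp4 (1.88 ± 0.14, which Gm15217 overlaps on the other strand), Myc (1.70 ± 0.15), Tnfrsf19 (0.90 ± 0.12) and Cd44 (0.31 ± 0.11), and lower were Id2 (-2.47 ± 0.19), Ccnd1 (-1.36 ± 0.21) and Bambi (-0.59 ± 0.12). Jun and Myc are also early targets of ERK signalling.

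Pluripotency genes that TCF7L1 is known to repress in mouse embryonic stem cells were tested alongside Tcf7l1. Of 9 tested, 7 fell (77.8%, against 28.6% of all genes tested) and 0 rose (against 28.5%). The median log2 fold change was -1.11. Nanog had 100.1 ± 19.0 CPM after 4OHT and 317 ± 18.1 CPM untreated (-1.66 ± 0.12). Tbx3 (-1.42 ± 0.11), Esrrb (-1.32 ± 0.14), Klf2 (-1.11 ± 0.13), Tcl1 (-1.15 ± 0.17), Tfcp2l1 (-0.86 ± 0.13) and Foxd3 (-0.72 ± 0.12) were lower as well. Nr5a2 (-0.21 ± 0.11) did not pass the test without the clone block and passed with it (adjusted p = 0.122 and 0.0002228 by edgeR), and Nr0b1 stood at 0.05 ± 0.29. The log2 fold change of Tcf7l1 itself was -0.44. Pluripotency genes outside this list did not all fall: Zfp42 (0.67 ± 0.09) and Pou5f1 (0.36 ± 0.06) rose, and Sox2 stood at -0.04 ± 0.07. Nanog and Esrrb are also among the embryonic stem cell markers above. The changes of the listed genes were known from the same libraries before the list was made, so these counts do not test repression by TCF7L1.

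**Figure D4:**
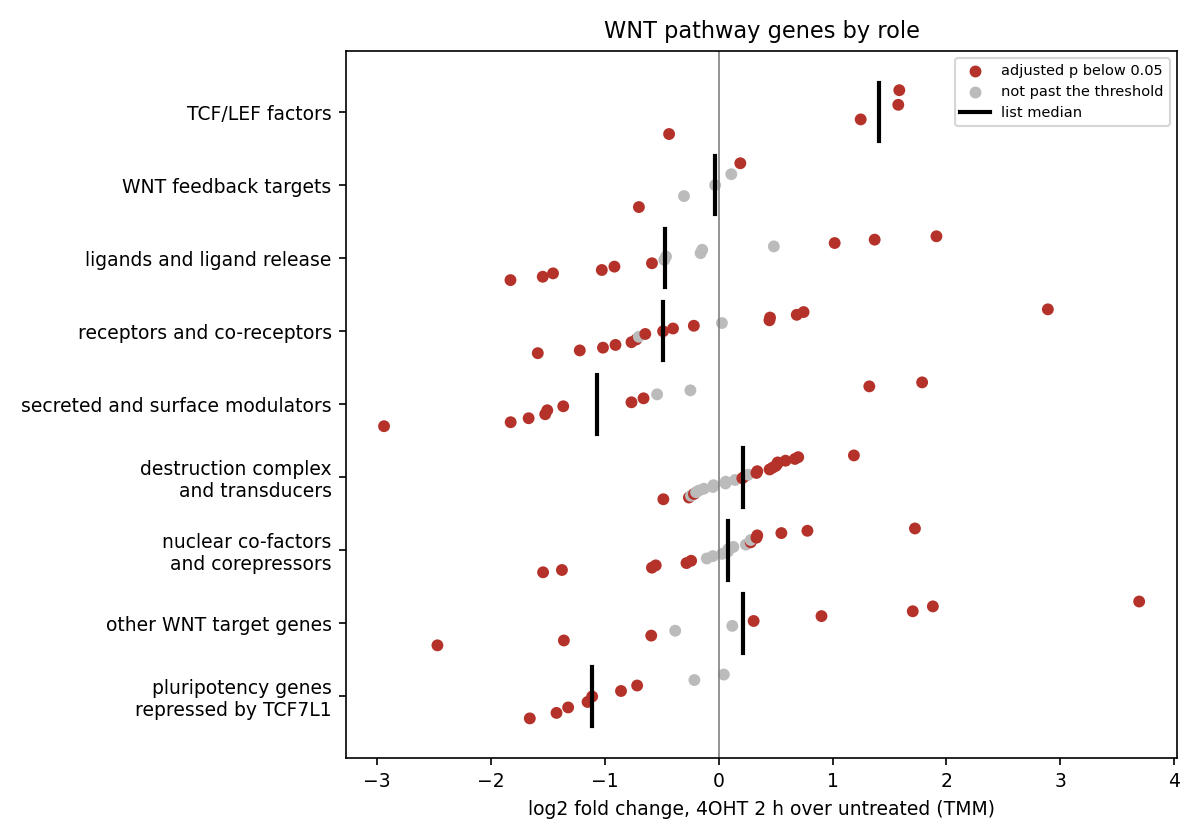
Log2 fold change (4OHT over untreated, TMM) of each tested gene in 9 lists of WNT pathway genes, n = 3 libraries a group. Points are genes, red where the adjusted p is below 0.05 and grey otherwise, and vertical bars are list medians. TCF/LEF factors other than Tcf7l1 lie above 1, secreted and surface modulators have a median of -1.07, and the genes repressed by TCF7L1 have no red point above 0. The lists were made with earlier results of these libraries known.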

How the data were processed

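Nascent RNA was counted in 6 libraries of mouse embryonic stem cells, 3 after 4OHT and 3 untreated. Per the labels' protocols, RNA was isolated with a DNase step, ethynyl-uridine RNA was pulled down, and an NEB kit was used for the libraries. Alignment and counting involved STAR, featureCounts and mm10, per the submitters' processing notes, and no version, setting, strand or feature type is given in the sources used here. For 25899 gene symbols (6497 without a count) raw read counts were deposited, which the authors had not normalized.

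The test was edgeR 4.0.16 under R 4.3.3. After filterByExpr (count of 10, total of 15) 13869 genes remained. Scaling was by TMM (factors 0.929 to 0.939 after 4OHT and 1.05 to 1.08 untreated). A quasi-likelihood model with treatment alone was fitted to all 6 libraries, with Benjamini-Hochberg adjustment over all genes kept and calls below 0.05. TMM cannot show a change of total transcription. Ratios between genes used counts plus 0.5. GENCODE M21 (GRCm38, the assembly of mm10) held 25557 of the symbols once, 38 more than once and lacked 304. Upstream windows are from RefSeq GRCm38.p6. The code was tested on simulated data.

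Libraries of the same clone are pairs by their labels. As a check, same-clone libraries deviated together from their group means (r = 0.282, 0.165 and 0.357, across genes). Libraries of different clones did so less (-0.283 to 0.0682). Subtracting the group means brings that about on average once same-clone values are positive, so it is no separate check. No label says that clones were handled separately, so the p-values describe variation among these libraries, which may be technical. No pair of libraries within a group looked like a copy (chi-square of 2.29 to 11.5 per gene).

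The 10 genes and all lists were chosen with earlier results of these data known. Named in the text are the 10 genes, from each wider list the 4 with the smallest adjusted p at a mean log2 CPM of at least 1, further list genes where a count of 5 or fewer calls for naming, and the 3 genes nearest to the largest rise and to the largest fall (mean log2 CPM of at least 2). Other Frizzled genes, Lrp6, Lgr4, Ctnnb1, Tle1, Nr5a2, Nr0b1, Tcl1, Tfcp2l1, Foxd3 and single cell type markers were named after their values were seen. So were Sfrp2, Notum, Apcdd1, Draxin, Rspo2, Wnt2b, Wnt3, Wnt3a and Wnt10a. Alternatives were DESeq2 1.42.0 and its size factors, library size, upper quartile, other filters, limma-voom (limma 3.58.1), clone as a block, stricter thresholds and each library or clone left out.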

Additional observations from a re-analysis of the deposited data

Results flagged for a closer look

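For 2 of the 9 genes tested, single clones went in opposite directions. Axin2, given as log2 CPM of 4OHT minus untreated, stood at -0.212 in clone a, 0.222 in clone b and -0.115 in clone c. Nkd1 stood at -0.114 in clone a, 0.00417 in clone b and 0.400 in clone c. Each value rests on 1 library a group, so the difference between clones was not tested. Counts behind them were 67 to 160 for Axin2 and 40 to 65 for Nkd1.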

How the results depend on the processing

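In all 20 alternatives Tcf7, Lef1 and Tcf7l2 were called higher, with log2 fold changes of 1.38 to 1.63, 1.39 to 1.80 and 1.05 to 1.31, and Axin2, Nkd1 and Rnf43 were called in none. Fzd7 was lower at -0.90 to -0.66, and lost its call only where a log2 fold change of at least 1 was required. That threshold left 2271 genes called (947 higher and 1324 lower), 3 of the 10 genes (all higher, 0 lower), and 33 genes of the wider lists (11 higher and 22 lower). Tcf7l1 stood at -0.64 to -0.32 and lost its call under that threshold and without both libraries of clone b, where 1 gene of the 10 was lower. Over all runs that left out a library or a clone, 1 to 2 of the 10 genes were lower. Znrf3 had a log2 fold change of -0.0099 by library size alone, which by construction drops the TMM factors, and that scaling gave 2407 higher genes. With clone as a replicate block, edgeR called 9348 genes and DESeq2 6984, both with 6 of the 10 genes called (4 higher and 2 lower). In edgeR the block changed no call among the 10 genes. In DESeq2, which called 6967 genes and 5 of the 10 without it, the block brought back the call of Znrf3 (adjusted p = 0.0708 without it and 0.035 with it). Ordering levels by gene span left 3 of 10 genes in place. Among the 10 genes, depth limits Sp5, Rnf43 and Nkd1, with at most 65 counts a library.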
